A study of Mus musculus with 16 samples.

Results

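A stably half-methylated bin is a 10-kb stretch of the mouse genome that read close to 50% CpG methylation in every group of oocytes studied. The bins were chosen by their measured values: autosomal bins of GRCm38 that start at a multiple of 10000, hold at least 20 methylation calls in each of the 16 samples, read from 40 to 60% in the pooled calls of each of the 4 groups, and whose 4 group values lie within 10 points. Of 246285 autosomal bins, 57035 (23.2%) held enough calls, 2217 of these were at 40 to 60% in each group, and 1439 also met the limit on the range (2.52% of the bins with enough calls). A further 4080 bins read 40 to 60% over all calls but were left out by the limits on the groups. The question followed here is what lies inside such a bin: a border between a methylated and an unmethylated domain that happens to fall in it, or CpGs that are each partially methylated.

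The samples were pools of metaphase II (MII) oocytes of C57BL/6J X CBA/Ca F1 females, assayed by post-bisulphite adapter tagging (PBAT), a whole-genome bisulphite method for small amounts of DNA. The 4 IFC samples came from in vitro follicle culture of preantral follicles of prepubertal females and are labelled 23 days of age, the 5 SO samples from superovulated 23-day-old females, the 4 SOA samples from superovulated females of 10 weeks, and the 3 IV samples from females of 10 weeks that ovulated without hormones. SO and SOA females both received equine and then human chorionic gonadotropin, at a lower dose in the prepubertal animals, so that age and dose cannot be told apart in that comparison. Each sample is 1 pool of many oocytes that kept their polar bodies, and p-values measure the spread between pools. The lysis step in the labels names a blastocyst, whereas every label of cell type and the study's methods give oocytes.

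In the growing oocyte, methylation is laid down de novo by DNMT3A with its cofactor DNMT3L, mostly over transcribed gene bodies, while promoters and silent intergenic DNA stay unmethylated. The mature oocyte genome therefore alternates between highly methylated and poorly methylated domains. A window that averages 50% can straddle such domains, or can hold CpGs that are methylated on only part of the DNA molecules.

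The sequences of 3 border bins and 2 uniformly partial bins are shown to let the contrast be seen at single CpGs. They come from the GRCm38 reference, plus strand, with every CG in capitals. For each border bin, the stretch of 150 bases with the most calls was taken on each side, at least 500 bases from the border and clear of annotated untranslated regions. At Ubtf, which encodes an activator of ribosomal RNA gene transcription, the left stretch (chr11:102310800-102310949) lies over a coding exon and had 151 of 159 calls methylated, with its 10 CpGs between 86.7 and 100%. The right stretch (chr11:102318450-102318599), in an intron, read 3.81% over 210 calls, with single CpGs from 0 to 12.5%. The unmethylated stretches shown lay 572 (Ubtf), 178 (Phox2a) and 6013 bases (Slc38a4) from the nearest annotated protein-coding start. The methylated stretches lay 966 (Ubtf), 442 (Inppl1) and 2713 bases (Slc38a4) from such a start. Single CpGs are quoted here where they had at least 5 calls. Stretches taken in the same way in other border bins are not shown. Among these, the methylated stretch at Psd read 89.6%, with single CpGs from 53.3 to 100%. The methylated stretch at Mib2 read 95.9%, with single CpGs from 83.3 to 100%.
Ubtf, methylated side: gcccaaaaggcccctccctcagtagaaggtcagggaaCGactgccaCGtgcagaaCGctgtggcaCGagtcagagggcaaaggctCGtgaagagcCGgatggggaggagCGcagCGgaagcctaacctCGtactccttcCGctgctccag
Ubtf, unmethylated side: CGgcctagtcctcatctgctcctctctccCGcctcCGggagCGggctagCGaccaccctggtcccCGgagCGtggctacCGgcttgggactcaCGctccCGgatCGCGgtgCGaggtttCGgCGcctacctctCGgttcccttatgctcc

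The bin that holds Phox2a, a homeobox factor of noradrenergic neurons, and Inppl1, a lipid phosphatase, read 0.489% over 409 calls in a stretch on a Phox2a coding exon (chr7:101820850-101820999) and 93.8% over 97 calls in a stretch on an Inppl1 coding exon (chr7:101828750-101828899). Every one of the 17 CpGs of the first stretch was at or below 4.35%, and every one of the 7 CpGs of the second was at or above 87.5%.
Phox2a, unmethylated side: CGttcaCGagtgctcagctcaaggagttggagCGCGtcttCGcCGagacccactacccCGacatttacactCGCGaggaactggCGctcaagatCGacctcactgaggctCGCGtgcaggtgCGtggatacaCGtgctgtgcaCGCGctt
Inppl1, methylated side: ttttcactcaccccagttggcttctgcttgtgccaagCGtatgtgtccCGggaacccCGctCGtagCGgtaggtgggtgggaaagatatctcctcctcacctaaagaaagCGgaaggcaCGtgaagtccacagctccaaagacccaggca

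At Slc38a4, an imprinted amino acid transporter gene, 2 stretches of introns gave 9.26% over 108 calls (chr15:97044000-97044149) and 98.1% over 53 calls (chr15:97047300-97047449).
Slc38a4, unmethylated side: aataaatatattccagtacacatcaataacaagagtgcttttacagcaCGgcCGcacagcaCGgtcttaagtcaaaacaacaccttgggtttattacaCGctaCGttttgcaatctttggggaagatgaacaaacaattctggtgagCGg
Slc38a4, methylated side: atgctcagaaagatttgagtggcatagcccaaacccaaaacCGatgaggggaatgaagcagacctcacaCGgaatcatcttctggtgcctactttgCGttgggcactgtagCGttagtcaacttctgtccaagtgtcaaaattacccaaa

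In the uniformly partial bins, the stretch of 300 bases with the most calls was taken. Myo18b, an unconventional myosin of muscle, read 61.0% over 200 calls in an intron (chr5:112848050-112848349), with its 18 CpGs from 42.9 to 100%. Myo7a, a myosin of the inner ear hair cells, read 48.3% over 232 calls at a coding exon (chr7:98079150-98079449), with its 19 CpGs between 33.3 and 71.4%.
Myo18b, partial: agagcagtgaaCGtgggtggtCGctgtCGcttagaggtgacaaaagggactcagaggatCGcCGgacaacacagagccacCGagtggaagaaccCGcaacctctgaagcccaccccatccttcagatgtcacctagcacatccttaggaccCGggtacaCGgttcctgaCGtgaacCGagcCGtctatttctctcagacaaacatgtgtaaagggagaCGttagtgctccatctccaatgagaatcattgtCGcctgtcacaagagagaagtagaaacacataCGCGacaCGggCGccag
Myo7a, partial: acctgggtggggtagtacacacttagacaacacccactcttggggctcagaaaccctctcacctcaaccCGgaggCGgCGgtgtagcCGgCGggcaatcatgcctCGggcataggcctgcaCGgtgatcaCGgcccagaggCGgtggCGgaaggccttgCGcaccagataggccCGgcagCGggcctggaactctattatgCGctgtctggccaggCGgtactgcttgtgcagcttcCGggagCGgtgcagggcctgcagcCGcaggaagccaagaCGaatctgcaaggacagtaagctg

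The libraries held 5218053 to 23065411 calls. A half-methylated bin had a median of 72 calls in a sample, and of 217 in the pooled IFC, 450 in the pooled SO, 302 in the pooled SOA and 378 in the pooled IV samples. At 50%, an approximate 95% binomial interval then spans 6.65, 4.62, 5.64 and 5.04 points on each side, for counting error only and as if calls were independent, although one read can give several calls. The range over the group values had a median of 6.81 points, the largest range inside the rule was 10.00 and the smallest range among the bins left out was also 10.00 points, with 778 bins left out by it. The limit of 10 points on the range is thus not far above the counting error of single group values. SOA4 gave most of the SOA calls, and without it 1113 bins met the rule, 925 of them among the 1439.

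Each bin was divided by structure. A border, and separately a pair of borders, was placed on a grid of 500 bases where the SO calls separated best, and the levels were then read in the pooled calls of IFC, SOA and IV. A bin was a border bin when one side was at or below 25% and the other at or above 75%. It was a block bin when an inner part differed in this way from the rest of the bin, with both outer parts pooled. It was stepped when the larger of both differences was at least 30 points, and otherwise even. An even bin with at least 80% of its 1-kb windows at 25 to 75% was called uniformly partial. By these limits, 746 bins (51.8%) held a border, 186 (12.9%) a block, 329 (22.9%) were stepped, 170 (11.8%) were uniformly partial and 8 (0.556%) were even but not uniform. The bins that the group limits left out divided into 40.5% border, 10.4% block, 33.2% stepped and 14.6% uniformly partial bins. A group of 51 bins lay within 5 points of the step of 30, 25 of them even and 26 stepped.

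The 1-kb windows followed these classes, as the classes in part imply. In border bins, 31.5% of 7411 windows were below 25%, 54.4% above 75% and 14.1% in between, while in uniformly partial bins 95.9% of 1679 windows were in between. The median standard deviation of windows within a bin was 39.4 points in border bins, 36.2 in block bins, 29.8 in stepped bins and 10.3 in uniformly partial bins.

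**Figure D1:**
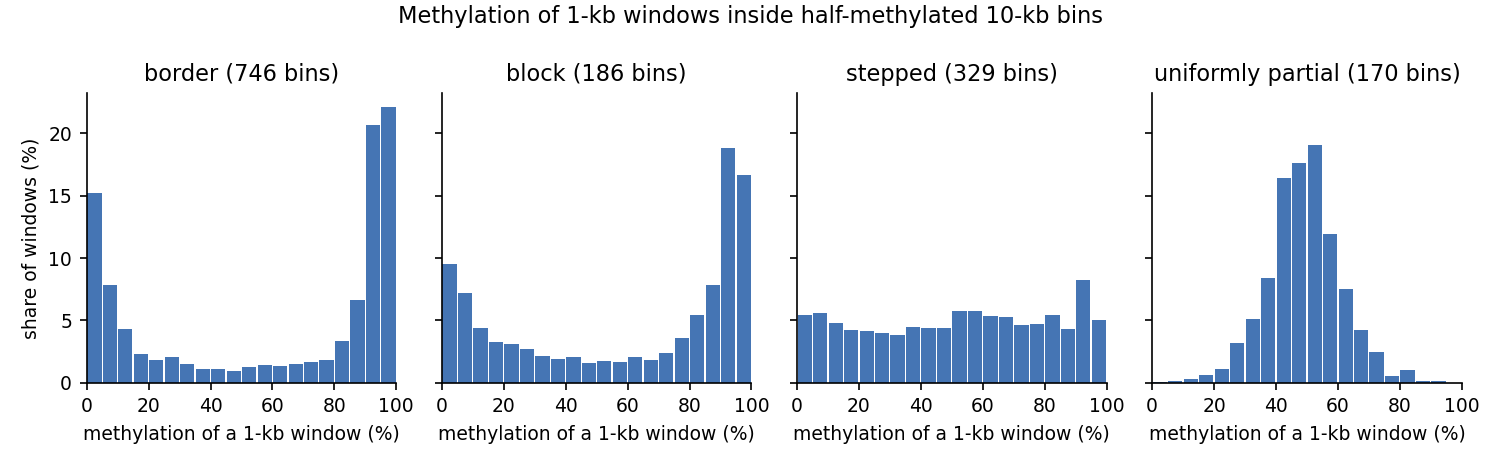
Distribution of methylation over 1-kb windows (x axis, percent in steps of 5; y axis, share of the windows of the class in percent) with at least 10 pooled calls, for the 4 main structure classes. Windows of border and block bins pile up near 0 and near 100%, those of stepped bins spread over the whole range, and 95.9% of those in uniformly partial bins lie between 25 and 75%.

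The position of the border was compared between groups as a description, since a border bin had to show the step at the SO border in the pooled IFC, SOA and IV calls. When the border was placed again from the calls of 1 other group alone, it fell within 500 bases of the SO border in 679 of 746 bins in IFC (91.0%), 693 in SOA (92.9%) and 704 in IV (94.4%), and over 2000 bases away in 4 bins in each of these groups (0.536%). The step from the low to the high side had a median of 78.6 points in IV and 81.1 to 81.4 points in the other groups. At 1250 bases before the border, the mean level was 6.81% for IFC, 7.76% for SO, 7.10% for SOA and 8.88% for IV. At 1250 bases past it, the levels were 91.2, 91.2, 91.6 and 90.6% in the same order.

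**Figure D2:**
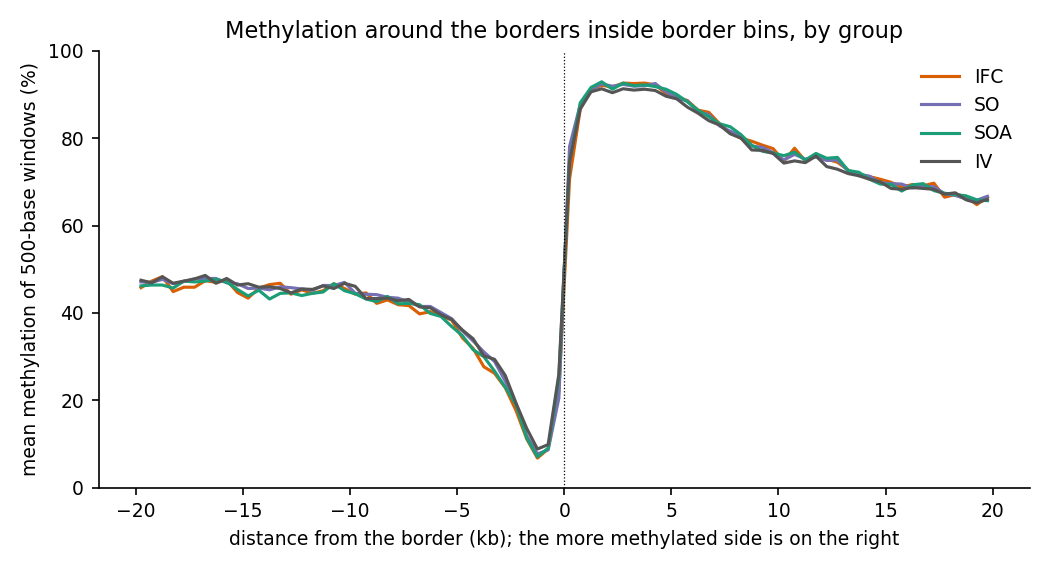
Mean methylation (y axis, percent) of 500-base windows against the distance from the border (x axis, kb), with the more methylated side turned to the right and 1 line for each group. The 4 lines lie over each other: the level rises from under 10% at 1250 bases before the border to over 90% at 1250 bases past it, and returns toward intermediate averages farther out on both sides.

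The levels of both sides were read in the 11 samples that did not place the border, although the limits of 25 and 75% had been applied to their pooled calls. Over these samples the low side read 11.2% ± 1.58 (SD, n = 11) and the high side 90.1% ± 1.35. By group, the low side was 10.3% ± 0.970 for IFC, 11.1% ± 0.467 for SO, 11.6% ± 1.24 for SOA and 11.9% ± 2.45 for IV, and the high side 90.0% ± 1.75, 90.7% ± 0.936, 90.8% ± 0.808 and 89.3% ± 1.19 (SD, n = 4, 5, 4 and 3). The groups overlapped on both sides. IV1 stood apart, with a low side of 14.7% and a difference between the sides of 73.2 points, against 77.6 to 80.9 points in the other samples. The study suspected a slight contamination of IV1 by somatic cell DNA and kept the sample. Whether this gave the values of IV1 here was not tested. Without IV1, the IV difference was 79.5 points in place of 77.4.

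**Figure D3:**
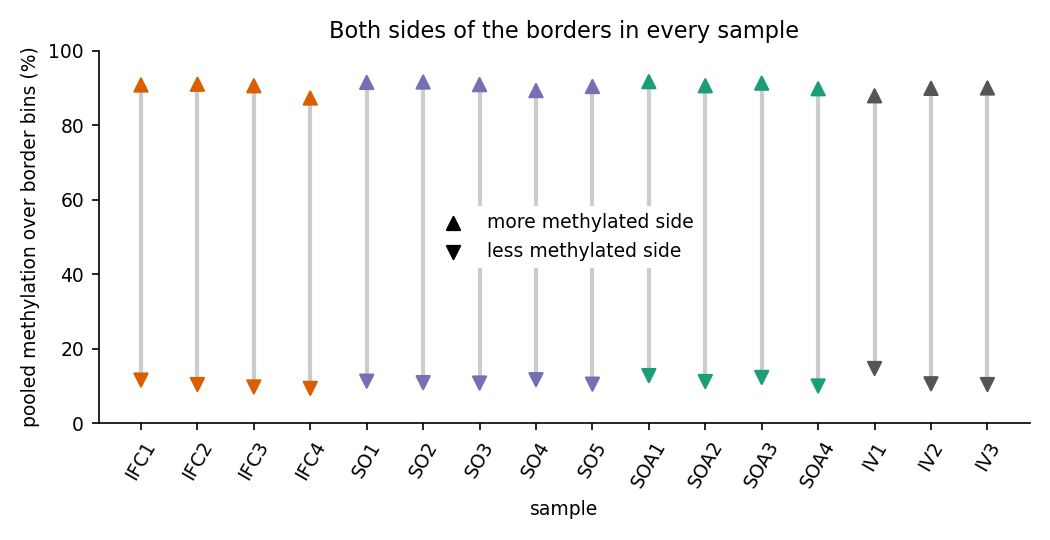
Pooled methylation (y axis, percent) of the more methylated side (upward triangles) and of the less methylated side (downward triangles) over the 746 border bins in each of the 16 samples (x axis, coloured by group). High sides lie between 87.3 and 91.7% and low sides between 9.37 and 14.7%, with the highest low side in IV1.

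The 4 border bins named by their number of calls (at most 1 per chromosome) show the values one by one. They hold many CpGs, 260 to 501 against a median of 153.0 in border bins, and their coverage of 6.52 calls per CpG at Ubtf to 10.9 at Phox2a lies on either side of the border median of 9.69. At Ubtf (chr11:102310000-102319999), the side left of 102317000 read 96.7% for IFC, 92.0% for SO, 90.6% for SOA and 88.8% for IV, and the right side 0.896, 4.43, 2.36 and 1.08%. The left side was 96.5, 92.9, 97.6 and 98.2% in the IFC samples, 97.2, 70.4, 95.9, 91.2 and 100% in the SO samples, 94.1, 95.1, 77.4 and 90.2% in the SOA samples and 83.0, 95.4 and 89.0% in the IV samples. The right side ran from 0 to 6.52%, so that the sides were far apart in every sample, while the groups overlapped on each side. The whole bin ranged from 29.6% in IFC4 to 72.2% in SOA2. These samples had much the same sides, at 98.2 and 0% in IFC4 and 95.1 and 0% in SOA2, but IFC4 had 57 calls on the left and 132 on the right, and SOA2 had 41 and 13.

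At Phox2a and Inppl1 (chr7:101820000-101829999), the left side ran from 0 to 7.55% over the 16 samples and the right side from 85.2 to 100%. Mib2, a ubiquitin ligase, and Mmp23, a metalloprotease, share the bin chr4:155650000-155659999, where the left side read 11.1% in SOA to 14.0% in IV and the right side 92.8% in SOA to 94.8% in IFC. Psd and Nfkb2, the latter a subunit of NF-kappa-B, share the bin chr19:46310000-46319999, with a left side of 83.6% for IFC, 89.5% for SO, 85.9% for SOA and 80.7% for IV, and a right side of 16.3, 20.8, 11.4 and 10.2%. In these 4 bins a value close to 50% described neither side.

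**Figure D4:**
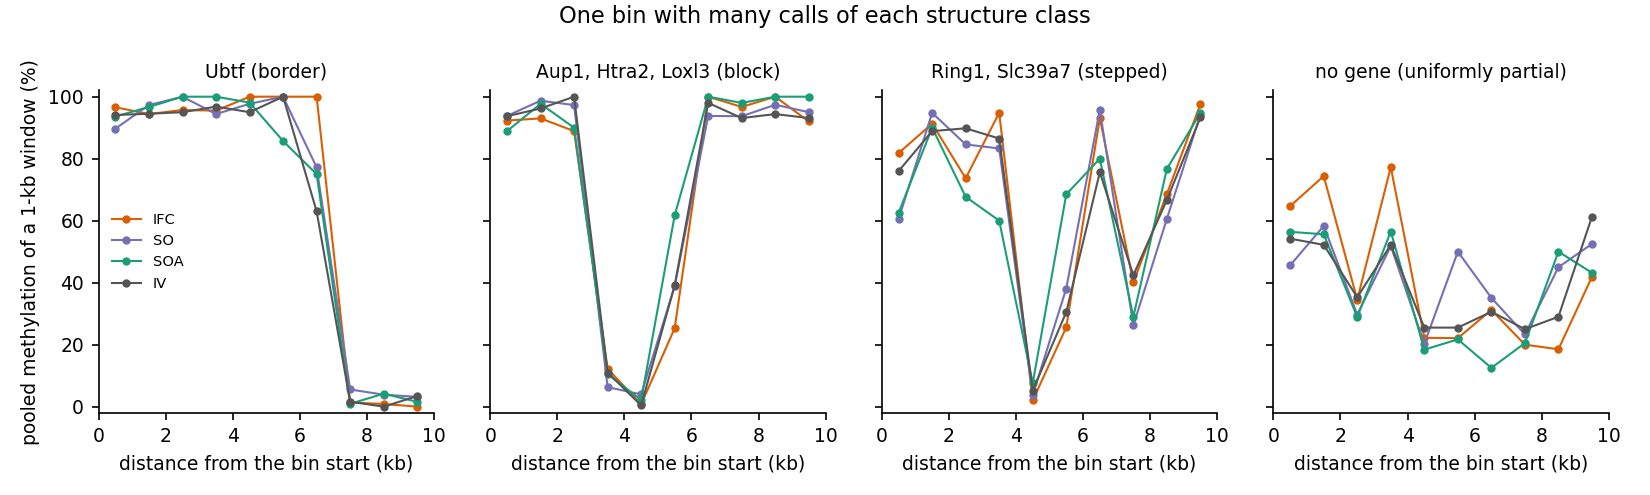
Pooled methylation (y axis, percent) of 1-kb windows against the distance from the bin start (x axis, kb) in 1 bin with many calls of each class, with 1 line for each group. Over all calls, the Ubtf windows fall from 96.5 through 72.1 to 2.84% within 3 neighbouring windows, the Aup1 bin holds a low block between methylated flanks, and the 10 windows of the uniformly partial bin lie between 21.7 and 58.0%. This last bin (chr7:18380000-18389999) is near the limits of its class. Of its windows, 8 are at 25 to 75%, and its inner part read 23.4% against 51.8% outside in the pooled IFC, SOA and IV calls.

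A minority of the borders joined domains longer than the bin. Taking the neighbouring bins on each side, 220 border bins (29.5%) joined a methylated to an unmethylated neighbour, 106 (14.2%) had methylated neighbours on both sides, 23 (3.08%) had unmethylated neighbours on both sides, 396 (53.1%) had at least 1 neighbour of intermediate level and 1 had a neighbour without enough calls. The neighbour on the high side had a median of 87.4% and the neighbour on the low side a median of 32.0%.

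The nearest protein-coding start lay at a median of 1781 bases from the border. A start was within 1 kb of the border in 267 of 746 bins (35.8%), while the centre of a bin was within 1 kb of one in 9.67% of all bins with enough calls, and the placed split of a stepped bin in 12.5%. Transcription ran toward the methylated side in 225 of these 267 bins (84.3%), and in 63 of 68 (92.6%) where the border joined a methylated to an unmethylated neighbour. The low side was richer in CpGs, with a median of 18.9 CpGs per kb against 12.5 on the high side, and was the denser one in 561 bins (75.2%). These are descriptions of the annotation beside the calls, and no expression was measured.

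In the block bins, a low inner part with a methylated rest of the bin was the common form, with 146 of 186 bins against 40 with a high inner part. Flank levels pool both outer parts, and no flank was held to the limits by itself. The low inner parts had a median length of 3000 bases and a median level of 9.17% between flanks of 85.9%, and 81 of these 146 bins contained a protein-coding start. The high inner parts had a median of 87.0% between flanks of 16.4%. The example with the most calls, chr6:83050000-83059999, holds Aup1, a protein of lipid droplets and of the degradation of misfolded proteins, Htra2, a mitochondrial serine protease, Loxl3, a lysyl oxidase, and Dqx1. Its inner part of 83053000 to 83055500 read 4.18% and its flanks 95.1%. The bin of Dmpk, the myotonic dystrophy kinase, and the homeobox gene Six5 (chr7:19090000-19099999) read 3.92% inside and 84.3% outside. The reverse order was seen at Acd, a shelterin protein of telomeres, with Pard6a, a cell polarity protein, and Enkd1 (chr8:105700000-105709999; 93.6% inside and 7.28% outside), and at Endog, a mitochondrial nuclease, with Spout1 (chr2:30170000-30179999; 95.8% inside and 14.1% outside).

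Stepped bins had parts of unequal level that did not meet both limits of 25 and 75% together, although a single part could pass its limit. The larger difference had a median of 53.3 points and ran from 30.3 to 72.1 points. In the bin of Eef2, the elongation factor that moves the ribosome (chr10:81170000-81179999), the left side read 2.30% and the right side 74.4%, with 16.1 calls per CpG against a median of 9.84 in stepped bins. The bin chr11:3120000-3129999, which holds no annotated gene, read 11.1 and 64.0% with 32.0 calls per CpG. Both are above 14.6 calls per CpG, 1.5 times the median of all bins with enough calls, and whether reads of several genomic copies were summed there was not tested. The bin of Ring1, a Polycomb protein, Slc39a7, a zinc transporter, and H2-Ke6 (chr17:34020000-34029999) had 8.21 calls per CpG, and its 10 windows ran from 4.79 to 94.6%, with 4 of them between 25 and 75%. The bin of Tradd, an adaptor of the TNF receptor, and B3gnt9 (chr8:105250000-105259999) read 69.8% on the left and 6.50% on the right.

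The classes were set by the pooled IFC, SOA and IV levels at the split placed in SO, so that the direction of the split in these groups is largely fixed by the class and is given as a description. It was the same in each of IFC, SOA and IV in 746 of 746 border bins, 186 of 186 block bins and 326 of 329 stepped bins (99.1%). In the uniformly partial bins it was the same in 74 of 170 (43.5%), and the median difference fell from 19.5 points in SO, where the split was chosen, to 9.28 points in IFC, 8.64 in SOA and 7.65 in IV.

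The uniformly partial bins differed from the border bins in what surrounds them. Their 316 neighbouring bins that were not half-methylated bins themselves had a median of 44.5% and quartiles of 30.6 and 52.4%, and 78.5% of them were at 25 to 75%. The 1447 such neighbours of border bins had quartiles of 21.5 and 92.1%, and 28.2% were at 25 to 75%. Stepped bins were in between, with 46.7% of 634 such neighbours at 25 to 75%. The neighbours of all bins with enough calls, none left out, had a median of 32.5%, with 23.7% at 25 to 75%. The neighbours of uniformly partial bins that were no half-methylated bins and had at least 10 calls in every sample averaged 44.0% ± 2.96 for IFC, 43.8% ± 2.09 for SO, 44.5% ± 3.34 for SOA and 44.1% ± 2.59 for IV (SD, n = 4, 5, 4 and 3; 255 neighbours), which is within the spread between samples. Single samples ran from 39.6% in IFC4 to 47.9% in SOA1. An unbroken run of bins at 25 to 75%, half-methylated bins included, around a uniformly partial bin had a median length of 50 kb and reached 360 kb, and 99 of 170 (58.2%) lay in runs of 50 kb or more. Of the border bins, 43 of 746 (5.76%) did, and of the stepped bins 56 of 329 (17.0%), where the longest run was also 360 kb.

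Uniformly partial bins rarely held a protein-coding start, which the limits of the class in part imply. An unmethylated stretch around a start lowers its 1-kb windows and widens the difference between parts, which can move a bin to another class. A protein-coding start lay in 8 of 170 of them (4.71%), against 377 of 746 border bins (50.5%), 95 of 186 block bins (51.1%), 41 of 329 stepped bins (12.5%) and 19.4% of all bins with enough calls. They overlapped a protein-coding gene in 58.2% of cases, against 70.3% of all bins with enough calls. Their CpG count, with a median of 120.0 per bin, and their GC content, with a median of 46.0%, were near those of all bins with enough calls (128.0 and 46.6%), and the repeat-masked share was 21.5 against 21.9%.

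Several genes held more than 1 uniformly partial bin. Myo18b held 5 half-methylated bins among its 13 bins with enough calls, all of them uniformly partial, with means of 46.4% for IFC, 44.4% for SO, 45.6% for SOA and 46.7% for IV. Shisal1 held 4 of 7. Myo7a held 3 of 5, Pxdn, which encodes a peroxidase of the extracellular matrix, 3 of 6, and Them7, of the thioesterase family, 3 of 10. The long non-coding gene C330002G04Rik held 2 of 2, Atxn10 2 of 5, Anks1b 2 of 16 and Atrnl1 2 of 29. Of the runs of neighbouring half-methylated bins, 1342 were single bins, 44 were pairs and 3 held 3 bins.

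Single samples differed widely in these bins. In the bin of Myo7a (chr7:98070000-98079999), the lowest sample was 25.6% (SOA3, 39 calls), the median 50.4% and the highest 73.7% (SOA2, 76 calls), while its 10 windows over all calls ran from 44.9 to 57.7%. In the bin of Shisal1 (chr15:84400000-84409999), the samples ran from 36.0 to 60.4% with a median of 49.2%, and the windows from 36.2 to 53.0%. In the bin of Myo18b (chr5:112840000-112849999), the samples ran from 39.0 to 63.6% with a median of 46.7%, and the windows from 29.7 to 58.5%. At the split placed in SO, the sides of this bin were not alike in every group. Left and right read 31.8 and 67.9% in IFC, 48.0 and 42.0% in SO, 42.0 and 62.6% in SOA, and 42.7 and 53.4% in IV.

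The variance between samples of a group exceeded the binomial variance of the calls 2.66 times in uniformly partial bins, 2.37 times in stepped bins and 3.48 times in border bins. Calls of the same read were counted singly, and their part in this excess was not tested.

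Single CpGs followed the classes, as the classes, which were set from the same calls, in part imply. Among CpGs with at least 10 pooled calls, 89.3% of 9881 in uniformly partial bins were at 20 to 80%, against 14.0% of 54052 in border bins, where 42.2% were below 20% and 43.8% above 80%. The standard deviation over CpGs of the uniformly partial bins was 18.7 points. Counting error of independent calls around the level of the bin would give 13.5 points. The spread between samples and calls of the same read are not part of that error. Whether the CpGs of such a bin were at different levels can thus not be read from this comparison. CpGs with enough calls in both sets had levels in IFC and SOA that followed those in SO and IV (Pearson's r = 0.563 across 492 CpGs, which are not independent replicates and share bins and reads). In border bins this r was 0.966 across 1621 CpGs. The plus and minus strand of the same CpG gave r = 0.442 across 454 CpGs. Without bins above 14.6 calls per CpG, both values were lower, at 0.456 and 0.386. After the mean of its bin was taken from the level of each CpG, r between the sample sets was 0.586, and 0.453 without these bins. The sets hold different samples, so that measured CpG levels within a bin were in part repeated between them.

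The level of a CpG in the uniformly partial bins was also read by the bases beside it, as a description and with bins of many calls per CpG included. Over all calls, CpGs in the context TCGA read 45.2% and those in CCGC 53.0%, the lowest and the highest of the 16 contexts. By the base after the CG, the mean over samples was 47.7% ± 3.50 for A, 52.2% ± 3.01 for C, 49.2% ± 3.00 for G and 49.0% ± 3.02 for T (SD, n = 16). Against the levels of the bins that hold them, the pooled calls were 2.81 points higher for C and differed by -1.43 points for A.

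What the data cannot tell is whether a CpG at 50% is methylated in some oocytes of the pool, on 1 of the 2 parental chromosomes, or on some of the molecules of every oocyte. The files hold calls and no reads or alleles, and all females were F1 hybrids mapped to the C57BL/6J genome.

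Most of the uniformly partial bins named by their number of calls had many calls per CpG. The bin of Tmem267 and Gm48265 (chr13:119610000-119619999) had 50.6 calls per CpG, that of Smok2b, a testis kinase of a multigene family (chr17:13230000-13239999), 23.4 and that of Gm49692 (chr12:20220000-20229999) 17.3, against a median of 9.79. These values are uncertain, since near-identical copies can share reads. Only 4 of 170 uniformly partial bins were above 14.6, along with 7 stepped, 1 border and 0 block bins. The fourth bin named by its calls, chr7:18380000-18389999, was not above this limit, with 10.2 calls per CpG. It held no annotated gene and read 42.4% for IFC, 44.2% for SO, 40.5% for SOA and 43.4% for IV. This bin was near the limits of its class, with 8 windows at 25 to 75% and 2 below. In the pooled IFC, SOA and IV calls it read 54.2% on the left and 31.7% on the right of the split.

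The lists of genes held few bins each, and their shares are given beside that of all bins with enough calls as a description. Of 143 bins with enough calls over imprinted genes, 1 was a member (0.699%, against 2.52% of all bins with enough calls). This was the Slc38a4 bin (chr15:97040000-97049999), whose left side read 11.8, 12.3, 11.7 and 9.05% and whose right side read 89.7, 92.9, 98.2 and 94.4% in IFC, SO, SOA and IV. Over single samples its left side ran from 0 to 25.9% and its right side from 78.3 to 100%. Of 44 bins over oocyte and maternal-effect genes, 1 was a member (2.27%). This bin of Trim28, a co-repressor that protects imprints, and of Slc27a5 was stepped (chr7:12990000-12999999). It read 47.9% left and 96.3% right of 12999000 in the pooled IFC, SOA and IV calls. The right part was short, and single samples had 0 to 9 calls in it. Of 93 bins over methylation and chromatin enzymes, 3 were members (3.23%). Tet2, a 5-methylcytosine dioxygenase, had a stepped bin (chr3:133530000-133539999) at 5.88, 9.62, 1.64 and 14.1% on the left and 73.4, 76.5, 69.5 and 78.0% on the right. Kmt2b, an H3K4 methyltransferase, had a border bin (chr7:30560000-30569999) at 1.18, 4.18, 4.50 and 4.64% on the left and 84.2, 92.1, 87.0 and 88.4% on the right. This bin also overlaps Igflr1, Psenen, U2af1l4 and Gm49396. Cxxc1, which binds unmethylated CpGs, had a border bin at 9.06, 11.9, 13.5 and 15.6% on the left and 97.2, 96.0, 97.0 and 95.2% on the right.

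Zinc finger genes named Zfp overlapped 592 bins with enough calls, and 27 of these were half-methylated (4.56%), 19 as border, 4 as block, 4 as stepped and 0 as uniformly partial bins. Zfp524 (chr7:5010000-5019999), for example, held a block of 1.37% between flanks of 87.0%, and Zfp618 (chr4:63130000-63139999) a border from 89.6 to 15.5%. Olfactory receptor genes overlapped 38 bins with 2 members (5.26%), a border bin of Olfr70 and Tmem8b and a uniformly partial bin at Olfr283. Hox genes (42 bins) and the protocadherin and vomeronasal receptor clusters held 0 members, although the clusters had few bins with enough calls. Among the genes with most members, Gm20388 led with 14 of 388 bins, but its annotation spans 4435 kb over many other genes. Fgfr2, a fibroblast growth factor receptor annotated over 2961 kb, had 4 of 153 bins. Ntrk2, the receptor of brain-derived neurotrophic factor, Pde4d, a cAMP phosphodiesterase, Cdh13, a cadherin, Spock1, Zdhhc14 and Pcbd2 had 3 each, of mixed classes, and the 3 Pcbd2 bins were neighbours (chr13:55740000-55769999). Another run of 3 held a block at Efemp2 and borders at Mus81 and at Cfl1, which encodes the actin-severing protein cofilin (chr19:5470000-5499999).

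Whether the inside of a bin differed between groups was tested, as the rule had fixed only its mean. For every bin with at least 5 calls in each of its 5-kb parts in every sample, the left minus the right level was compared by limma over all 16 samples, with Benjamini-Hochberg adjustment over 73439 bins, of which 1279 were half-methylated. In IFC vs SO, 3 bins (0.00409%) passed an adjusted p of 0.05, none of them half-methylated, where 92 of the 1279 had an unadjusted p under 0.05 (7.19%, against 6.05% of all bins) and a logistic model of the calls called 21 (1.64%, against 0.475% of all bins). In SO vs SOA, 42 bins (0.0572%) passed, 0 of them half-methylated, with 97 at an unadjusted p under 0.05 (7.58 against 6.33%) and 23 by the logistic model (1.80 against 0.840%). The 42 bins became 3 without SOA4, 14 to 27 without SO1, SO2, SO4, SO5, SOA1 or SOA2, 11 without weights and 0 with the replicate block. In SOA vs IV, 0 bins (0%) passed by limma, with 114 half-methylated bins at an unadjusted p under 0.05 (8.91 against 6.06%) and 26 by the logistic model (2.03 against 0.818%). In IFC vs SOA, 63 bins (0.0858%) passed, 4 of them half-methylated (0.313% of 1279), with 99 at an unadjusted p under 0.05 (7.74 against 7.10%) and 36 by the logistic model (2.81 against 0.999%). The 63 bins became 13 without SOA4 and 23 to 39 without any 1 of the IFC samples or SOA1. The logistic model takes no account of the spread between pools, and the comparisons share samples. IFC and SOA samples differ in follicle culture, age and hormone treatment together, so that these cannot be told apart in that comparison. The median standard error of the difference in a half-methylated bin was 7.74 to 9.27 points over the comparisons, which limits the size of a shift that could be detected.

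The 4 bins that passed are named here after their values were seen. In the bin of Scg5, a chaperone of prohormone convertase 2 (chr2:113800000-113809999), left minus right was -0.161, -16.7, 40.2 and 5.56 points in IFC and -48.2, -34.2, -46.6 and -53.9 points in SOA, a difference of 59.5 points (SE 9.35, limma adjusted p = 0.0214). The SO samples were at -37.5, -38.7, -32.0, -23.0 and -36.0 points and the IV samples at -52.0, -27.7 and -31.8 points, below every IFC sample. In the bin chr11:48790000-48799999, without an annotated gene, left minus right was 13.2, 26.7, 35.2 and 24.7 points in IFC and -26.6, -5.95, -24.0 and -17.4 points in SOA, a difference of 39.9 points (SE 6.06, limma adjusted p = 0.0162). The SO samples were at -2.99, -2.08, -3.63, -6.53 and -10.4 points and the IV samples at -11.0, 9.20 and -6.20 points, all below every IFC sample. Each of these 2 bins passed in 15 of 19 alternatives, but those that left out an SO or IV sample could not change the difference. The Scg5 bin did not pass without IFC1, IFC3, IFC4 or SOA4. The bin chr11:48790000-48799999 did not pass without IFC2, IFC3, IFC4 or SOA4.

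In the bin of Kcnab1, a potassium channel beta subunit, and A730090N16Rik (chr3:65320000-65329999), the rule had fixed the likeness of the group means (55.2 to 58.2%). Its left part exceeded the right by 38.2, 27.7, 72.1 and 37.0 points in the IFC samples, whereas left minus right was -47.2, -38.4, -53.9 and -44.6 points in the SOA samples. The SO samples were at -15.6, -1.33, -11.5, 5.10 and 5.56 points, and the IV samples at -25.6, 32.8 and -41.6 points. IFC and SOA differed by 90.9 points (SE 15.6, limma adjusted p = 0.0380). In the border bin of Tmem106a and Gm11634 (chr11:101590000-101599999), left minus right was 37.2, 35.0, 50.3 and 34.2 points in IFC and 68.2, 83.3, 66.7 and 65.6 points in SOA, a difference of -28.3 points (SE 4.95, limma adjusted p = 0.0424). The SO samples were at 49.2, 68.1, 52.4, 61.6 and 57.3 points and the IV samples at 32.4, 39.7 and 39.4 points, with IV1 just below the lowest IFC sample and the other two within the range of IFC. There the direction was the same in all samples and the size differed. The Kcnab1 and Tmem106a bins each passed in 5 of 18 alternatives.

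In all 4 bins the IFC and SOA samples did not overlap, which the test that picked these bins in part implies. How often this holds among all bins was not counted. The calls were close to the limit. Without SOA4 or without IFC4, 0 of the 1279 bins passed, while the differences stayed about as large, at 53.2 points without SOA4 and 60.5 without IFC4 at Scg5, 93.1 and 94.1 at Kcnab1 and -32.5 and -26.6 at Tmem106a. In the bin chr11:48790000-48799999 the difference ran from 36.8 to 46.1 points over all alternatives. Over the alternatives, the largest limma adjusted p of these bins was between 0.161 and 0.236. With the replicate number as a block, 2 of the 1279 passed, and the calls at Kcnab1 (adjusted p = 0.0724) and Tmem106a (adjusted p = 0.0981, both by limma) were lost, with differences of 90.5 and -28.9 points.

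**Figure D5:**
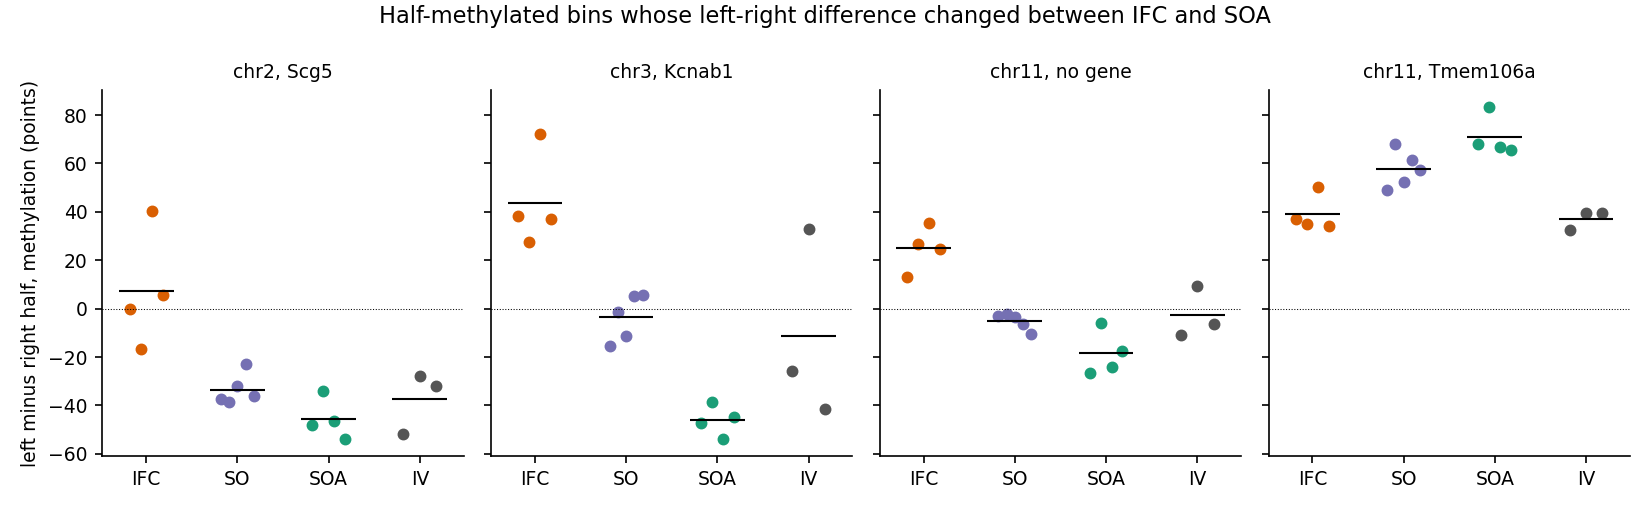
Left minus right 5-kb level (y axis, points of methylation) in each sample (points) with the mean of each group (bars) for the 4 half-methylated bins whose left-right difference passed in IFC vs SOA. IFC and SOA points do not overlap in any of the 4 panels, as the test that picked the bins in part implies. In the Kcnab1 panel they lie on opposite sides of 0.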

How the data were processed

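Each of the 16 samples was a PBAT library of a pool of MII oocytes. The authors trimmed the reads (Trim Galore 0.4.4 and cutadapt 1.9.1, per the submitters' processing notes), aligned them to GRCm38 with Bismark 0.19.0, removed duplicates and deposited, for each covered CpG position and strand, raw counts of calls of either state together with the percent methylated, with no normalization. The deposited percent column was not used, since it follows from the counts. Calls were summed over 500-base cells and 10-kb bins. Depth was 5218053 to 23065411 calls per library, and intervals cover counting error only.

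The bins, classes and gene lists were chosen with earlier results of these data known. Named bins were the 4 of each class with the highest smallest group call count (at most 1 per chromosome, chromosome 18 left out), the 3 longest runs, the 15 genes with most members, the 10 with most uniformly partial bins, and members over the gene lists. For lists with over 12 bins, the counts and the 4 bins with most calls were used. Groups were compared with limma 3.58.1 (R 4.3.3; weights from the calls, all 4 groups in 1 fit), tested on simulated data. The alternatives were other depth, range and class limits, shifted bins, reference CpGs only, a border placed in IV, unweighted and logistic tests, a replicate block and each sample left out. Leaving out bins with many calls per CpG was added after seeing the data. Genes came from GENCODE M21. Other steps used Python 3.11.15 with numpy 2.4.6, pandas 2.3.3, scipy 1.17.1 and matplotlib 3.10.9. One gene that the naming rule selects is not reported here.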

Additional observations from a re-analysis of the deposited data

Results flagged for a closer look

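Among 21 groups of 4 or 5 samples examined, 3 held a sample far from the rest. Chance gives about 1 in 20 for independent values. These values share samples, and some came from the bins that passed in IFC vs SOA, so that this rate is no reference here. IV, with 3 samples, was not examined. In IFC, the methylated side of the border bins was lowest in IFC4, at 87.3%. In SO, the difference between the sides was smallest in SO4, at 77.6 points. In the Tmem106a bin (chr11:101590000-101599999), left minus right was highest in SOA2, at 83.3 points, from 14 calls on the left and 6 on the right.

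The difference between left and right passed the limma test between IFC and SOA in 4 half-methylated bins, where 0.0858% of all bins passed. None of the 4 passed without SOA4 or without IFC4, and 2 passed with the replicate block. Kcnab1 and Tmem106a passed in 5 of 18 alternatives. Left minus right was 90.9 points higher in IFC at Kcnab1 (chr3:65320000-65329999), 59.5 points higher at Scg5 (chr2:113800000-113809999), 39.9 points higher in the bin chr11:48790000-48799999, and was -28.3 points from SOA at Tmem106a.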

How the results depend on the processing

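The number of half-methylated bins depended on the limits. It was 226 with at least 40 calls in each sample, 361 with group values within 5 points and 321 with group values from 45 to 55%, against 1439, and ran from 1113 to 1500 when each sample was left out. Shifted bins, sample means and reference CpGs gave 1347, 1226 and 1389. The class counts stayed within 1.5 times under the other class limits, grids and placements and without bins with many calls per CpG, except that even bins that were not uniform numbered 2 with a step of 20 points and 6 to 13 when a sample was left out. With limits of 20 and 80%, 596 border and 488 stepped bins were counted, and with a step of 20 points 136 uniformly partial bins.

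The left-right test was less stable. In IFC vs SO, 3 bins became 1 with at least 10 calls per part and 349 with the logistic model, and 0 to 4 when a sample was left out, with 21 half-methylated bins by the logistic model. In SO vs SOA, 42 became 11 without weights, 19 with at least 10 calls and 617 with the logistic model, and 3 to 46 when a sample was left out, with 23 half-methylated bins by the logistic model and 0 to 1 when a sample was left out. In SOA vs IV, 0 became 601 with the logistic model, 26 of them half-methylated. In IFC vs SOA, 63 became 106 without weights, 25 with at least 10 calls and 734 with the logistic model, and 13 (without SOA4) to 70 when a sample was left out. The half-methylated bins among these were 2 with at least 10 calls, 36 with the logistic model and 0 to 4 when a sample was left out. The logistic model leaves out the spread between pools by construction, and the cause of the other shifts was not tested.

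Samples of different groups share replicate numbers. In the left-right differences, deviations from the group means of same-numbered samples had r from -0.00875 to 0.0217 over 21 pairs. Pairs of unlike number had r from -0.0263 to 0.0331 over 74 pairs. A shift in the level of a whole sample cancels in these differences, so that pairing by level was not tested. The mean level of the half-methylated bins ran from 52.8% in IFC1 to 45.9% in IFC4, and from 54.6% in SOA1 to 47.9% in SOA4. With the replicate block, 0 bins passed in IFC vs SO, 0 in SO vs SOA, 0 in SOA vs IV and 74 in IFC vs SOA, 2 of them half-methylated.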
